A study of Rattus norvegicus with 3 samples.

Results

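HILS1 peaks whose nearest gene carries a name made of Zfp and a number, which is given to one part of the zinc finger protein genes of the rat, are described here. These are called the zinc finger genes below, although zinc finger genes with other names, such as Sall1 and Zkscan3, are also in the list. Rows were taken from the deposited peak list by the gene name alone, which gave 352 of 32731 peaks and 48 of 4777 gene names. All 48 gene descriptions in the list name a zinc finger protein, and 3 of them (Zfp36l1, Zfp36l2 and Zfp36l3) name the C3H type. HILS1 was immunoprecipitated from elongating and condensing spermatids of rats aged 50 to 60 days in 2 replicates, with 1 input library as their control. Nuclei were prepared from testis, no treatment or mutant was used, and the list keeps what the peaks of both replicates have in common on the rat build rn5. The list holds 1 value of each kind per peak and none per replicate, so no spread between replicates can be given, and the intervals below cover only the counting error. No peak is a replicate of another, since segments of a called peak repeat its fold enrichment, and the 352 rows come from 297 called peaks. Values for the zinc finger genes are therefore set beside those of the whole list without a test. The whole list, which includes the 352 rows, had fold enrichments of 7.41 to 205.

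HILS1 is a linker histone made in spermatids at the time when histones give way to transition proteins and protamines. Most zinc finger genes encode C2H2 proteins, in which each finger holds a zinc ion and reads a few bases of DNA. Many of these carry a KRAB domain, which recruits TRIM28 and the histone methyltransferase SETDB1 to silence retrotransposons such as LINE-1 (L1), and many lie in tandem clusters. Proteins of the Zfp36 family have C3H fingers instead and bind AU-rich sequences in mRNA. The nearest gene of a peak is a label of position here, and most of the peaks lay far from it.

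All 352 peaks were annotated as intergenic or intronic, as were all but 65 of the 32731 peaks of the list (0.199%). With so low a share over the list, the lack of promoter and exon peaks near these genes says nothing particular about them. The nearest to any transcription start site (TSS) lay 4956 bp from that of Zfp518a, measured to the centre of the peak, followed by a peak 6063 bp from that of Zfp652 and another 6537 bp from that of Zfp518a. The next were at 7833 bp for Zfp511 and 8649 bp for Zfp37. Start regions are shown for Zfp511, which had the closest peak of the genes whose first annotated start is in the reference used here, and for Zfp352, which had the most LINE-1 peaks. Each runs from 250 bases before the start to 50 after it in the RefSeq annotation of GRCr8, a later build than that of the peaks. Capitals mark CpG dinucleotides (CG, which reads the same on both strands). The first is chr1:204247099-204247398 and the second chr5:110061792-110062091, both on the plus strand. The distances in the list place Zfp352 on the minus strand of rn5, so its strand differs between builds. The same holds for Zfp36l2, Zfp347, Zfp192 and Zfp958 (minus in rn5, plus in GRCr8). Zfp36l3 is on the plus strand in rn5 and the minus strand in GRCr8. Genes with 1 peak or without a matched start region could not be compared. Upstream and downstream below follow rn5, and whether peaks keep their side in GRCr8 was not tested.
Zfp511: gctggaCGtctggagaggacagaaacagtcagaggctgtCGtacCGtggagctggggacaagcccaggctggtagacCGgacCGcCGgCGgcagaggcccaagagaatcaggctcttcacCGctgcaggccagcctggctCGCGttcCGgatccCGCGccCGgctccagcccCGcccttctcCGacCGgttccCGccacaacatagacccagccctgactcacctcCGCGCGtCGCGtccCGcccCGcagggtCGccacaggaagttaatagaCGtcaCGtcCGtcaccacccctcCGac
Zfp352: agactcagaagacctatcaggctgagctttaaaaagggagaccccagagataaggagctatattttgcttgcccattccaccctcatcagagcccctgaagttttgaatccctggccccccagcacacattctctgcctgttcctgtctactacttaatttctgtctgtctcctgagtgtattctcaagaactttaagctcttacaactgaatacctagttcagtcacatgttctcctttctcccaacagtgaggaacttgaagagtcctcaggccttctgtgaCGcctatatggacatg
The Zfp511 start region held 30 CpG dinucleotides, more than 89.7% of the 33469 start regions of the same length in the reference. That of Zfp352 held 1, more than 5.47% of them. Start regions were matched for 39 of the 48 genes and gave 42 sequences, with a median of 11 CpG dinucleotides against 7 over all 33469. At least 10 were found in 59.5% of those of the zinc finger genes and in 41.5% of all. Of the 42 sequences 15 lay at the outermost start of the gene and the others at a start within it.

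Peaks were spread unevenly over the genes. Zfp295, now named Zbtb21, a BTB domain zinc finger gene, had 56 peaks, or 15.9% of the 352 (95% Wilson interval 12.5% to 20.1%). It was followed by Zfp36l2 with 47, Zfp352 with 38, Zfp622 with 35, Zfp709l1 with 22, Zfp868 with 19 and Zfp217 with 16. These 7 genes held 66.2% of the peaks. Zfp386 had 11 peaks, Zfp458 and Zfp511 had 9 each, Zfp608 had 7 and Zfp347 had 6. Of the other genes, 20 had 2 to 5 peaks and 16 had 1. The median was 3 peaks per zinc finger gene and 3 per gene name in the whole list, and 58 gene names of the list had more peaks than Zfp295. No gene had neighbouring peaks 1 Mb or more apart, although the largest gap was 806 kb at Zfp386. Peaks are given to the nearest start, which keeps those of a gene together, so this was close to fixed in advance and is not read as a trait of these genes.

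**Figure D1:**
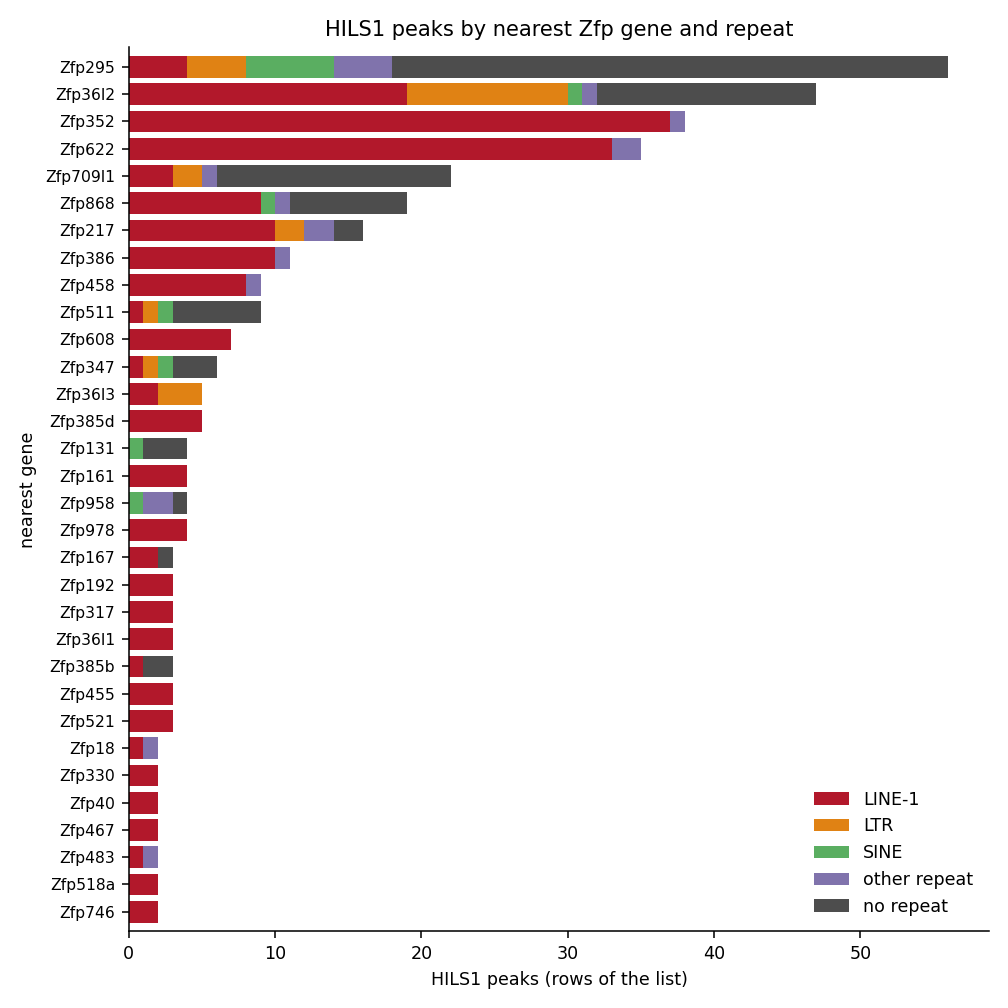
Number of HILS1 peaks (horizontal axis, rows of the list) for the 32 zinc finger genes with more than 1 peak, coloured by the repeat at the peak. Zfp295 had 56 peaks, 38 of them in no annotated repeat, while Zfp352 and Zfp622 had 37 of 38 and 33 of 35 peaks in LINE-1.

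The list gives each peak at most 1 repeat label, whatever its length, and a peak is said to be in a repeat by this label. Whether the rest of a peak held the same repeat, another or none was not tested. LINE-1 elements held 198 of the 352 zinc finger peaks, 56.2% (51.0% to 61.3%), against 77.6% of the whole list. No annotated repeat was given for 96 zinc finger peaks, 27.3% (22.9% to 32.2%), against 11.3% of the whole list. Without Zfp295 the LINE-1 share of the remaining 296 peaks was 65.5% (60.0% to 70.7%) and the share in no repeat was 19.6% (15.5% to 24.5%). The difference from the whole list was thus smaller without that gene. LTR elements held 25 zinc finger peaks (7.10%, against 4.40% in the whole list), SINEs held 12 (3.41%, against 0.813%) and satellites held 3 (0.852%, against 2.82%). Without the Zfp36l genes the LTR share was 3.70%, below that of the list, and without Zfp295 the SINE share was 2.03%. RatSatRep2, a repeat that the annotation places in no class, held another 12 (3.41%, against 2.04%).

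Zinc finger genes ranged from those with peaks in LINE-1 only to a few with none there. In 25 of the 48 genes all peaks (56 together) lay in LINE-1, led by Zfp608 with 7 and Zfp385d with 5. Of these genes 11 had a single peak, and the same count over all gene names of the list was not made. In 7 genes no peak did: Zfp131 and Zfp958 with 4 each, and Zfp322a, Zfp37, Zfp507, Zfp52 and Zfp532 with 1 each. The 16 genes with both kinds held 283 peaks. Peaks in no annotated repeat were found at 12 genes, and 83 of the 96 lay nearest Zfp295, Zfp709l1, Zfp36l2, Zfp868 or Zfp511. Averaged with equal weight for each gene, the LINE-1 share was 69.0% over zinc finger genes and 88.9% over all gene names of the list. The share in no repeat was 13.4% and 4.30% with the same weights.

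Within LINE-1, the subclasses were present in other proportions than in the whole list. L1_Rn gave 66 of the 198 LINE-1 peaks, 33.3% (27.1% to 40.2%), against 48.0% of the LINE-1 peaks of the whole list. L1_Rat1 gave 68, or 34.3% (28.1% to 41.2%), against 30.3%, and RNHAL1 gave 19, or 9.60% (6.23% to 14.5%), against 10.2%. L1_Rat3 gave 15, or 7.58% (4.64% to 12.1%), against 1.55% in the whole list, and 10 of these lay nearest Zfp36l2. Without that gene L1_Rat3 gave 5 of 179 LINE-1 peaks, or 2.79%, and L1_Rn gave 64, or 35.8%. Median fold enrichment at zinc finger genes was 29.6 in L1_Rn, 24.1 in L1_Rat1 and 13.0 in L1_Rat3, against 30.6, 24.1 and 16.7 in the whole list.

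**Figure D2:**
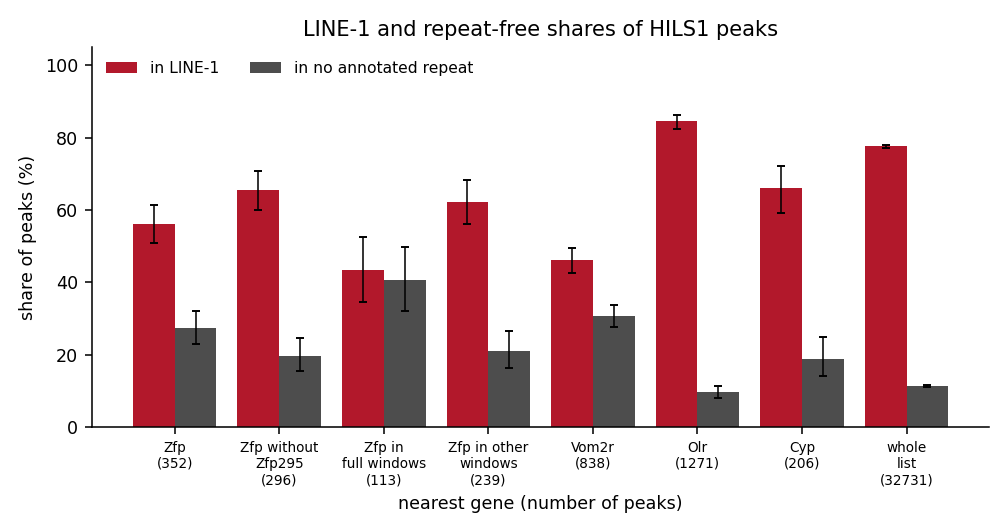
Share of HILS1 peaks (percent) in LINE-1 and in no annotated repeat for the zinc finger genes, subsets of them, 3 other gene families and the whole list, with the number of peaks under each pair of bars. Error bars are 95% Wilson intervals, full windows are stretches of 1 Mb with at least 50 peaks, and the LINE-1 share was 56.2% at zinc finger genes against 77.6% in the whole list.

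Other gene families taken from the list by name gave values on both sides. Peaks nearest a vomeronasal receptor gene of the Vom2r family were in LINE-1 in 46.1% of 838 and in no repeat in 30.7%. For Olr genes, which encode olfactory receptors, these shares were 84.5% of 1271 and 9.60%, and for Cyp genes, the cytochromes P450, 66.0% of 206 and 18.9%. The zinc finger genes, at 56.2% and 27.3%, lay between Vom2r and Cyp genes. Without Zfp295 they had 65.5% and 19.6%, close to the Cyp genes. Single genes weighed on the other families too, with 411 of the 838 peaks at Vom2r57 and 47 of the 206 at Cyp2b1. In windows of 1 Mb that held at least 50 peaks of the list, 43.4% of 113 zinc finger peaks were in LINE-1, against 29.5% of the 6328 peaks of the list in such windows. Without Zfp622 it was 20.5% of 78 zinc finger peaks, below the list. Outside these windows the LINE-1 share was 62.3% of 239 zinc finger peaks (56.1% to 68.2%) against 89.1% of the list. All 56 peaks of Zfp295, all 35 of Zfp622, all 19 of Zfp868 and 3 of Zfp36l2 lay in windows of at least 50 peaks. Of the 239 outside them, 44 were nearest Zfp36l2 in a window of 45 peaks, just under the limit, with 37.8% in LINE-1. Another 28 were nearest Zfp347 or Zfp709l1 in a window of 32 peaks, with 25.0% in LINE-1. The share outside full windows without these 2 runs was not computed.

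Region class differed from the list as well. Of the 352 zinc finger peaks 345 were intergenic, 98.0% (96.0% to 99.0%), against 85.9% of the whole list, and 7 were intronic, 1.99%, against 13.9%. The intergenic share was 96.0% for Olr genes, 87.5% for Vom2r genes and 67.5% for Cyp genes. Of the 7 intronic peaks 6 lay within the nearest zinc finger gene itself, in 5 genes. Zfp518a had 2 in intron 2 of 4, both in L1_Rat1, with fold enrichments of 26.9 and 13.9. Zfp37 had 1 in intron 3 of 7 in no repeat with a fold enrichment of 18.5, and Zfp532 had 1 in intron 2 of 9 in a simple repeat, also with 18.5. Zfp280d had 1 in intron 12 of 20 in RNHAL1 with 15.7, and Zfp167 (now Zkscan7) had 1 in its last intron, 5 of 5, in no repeat with 13.9. The seventh, nearest the start of Zfp951 at 42058 bp, was placed in an intron of another transcript. Of the 6 peaks inside their own gene only the first of Zfp518a was above the median fold enrichment of the list.

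Distances to the TSS had a median of 209194 bp (192146 to 218184 bp) at zinc finger genes, against 198769 bp in the whole list, and of 195571 bp without Zfp295. The order turned with equal weight for each gene, which gave 64438 bp for zinc finger genes against 71013 bp for the list, and with peaks of a fold enrichment of at least 16, which gave 183843 against 186393 bp. The distribution had a different shape from that of the list. Within 10 kb of a start lay 7 zinc finger peaks (1.99%, against 3.85% of the list), and between 100 and 500 kb lay 226 (64.2%, against 41.9%). Beyond 500 kb lay 41 (11.6%, against 25.5%), from 4 genes, and 39 of the 41 were in LINE-1. The 5 farthest were all upstream and in LINE-1. Those of Zfp386 lay 2456860, 2387131 and 1795662 bp away with fold enrichments of 32.4, 22.2 and 13.9, and those of Zfp352 lay 1558943 and 1454997 bp away with 13.9 and 28.7. Of the zinc finger peaks 51.1% lay upstream of the start, against 52.0% of the list, and this share was 41.9% without Zfp295, whose peaks were all upstream, and 57.9% without the Zfp36l genes. Among the 32 zinc finger genes with more than 1 peak, 24 had them all on 1 side of the start. The same count was not made for the other gene names of the list. Some of these genes have few peaks, and those of Zfp521 are segments of 1 called peak, so the count is not read as a trait of zinc finger genes.

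Fold enrichment, which sets the height of a called peak against the background that the peak caller took, had a median of 19.4 (19.4 to 22.2) at zinc finger genes, against 25.0 in the whole list, and of 22.2 (19.4 to 24.1) without Zfp295. In LINE-1 the median was 25.0 for the 198 zinc finger peaks, against 26.9 for all LINE peaks of the list. In no annotated repeat it was 17.6 at zinc finger genes against 16.7 in the list, and in LTR elements it was 15.7 in both. Within each of these kinds the zinc finger genes were thus close to the list, and their lower median stood beside a larger share of repeat-free peaks. Whether that share accounts for the lower median was not tested.

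**Figure D3:**
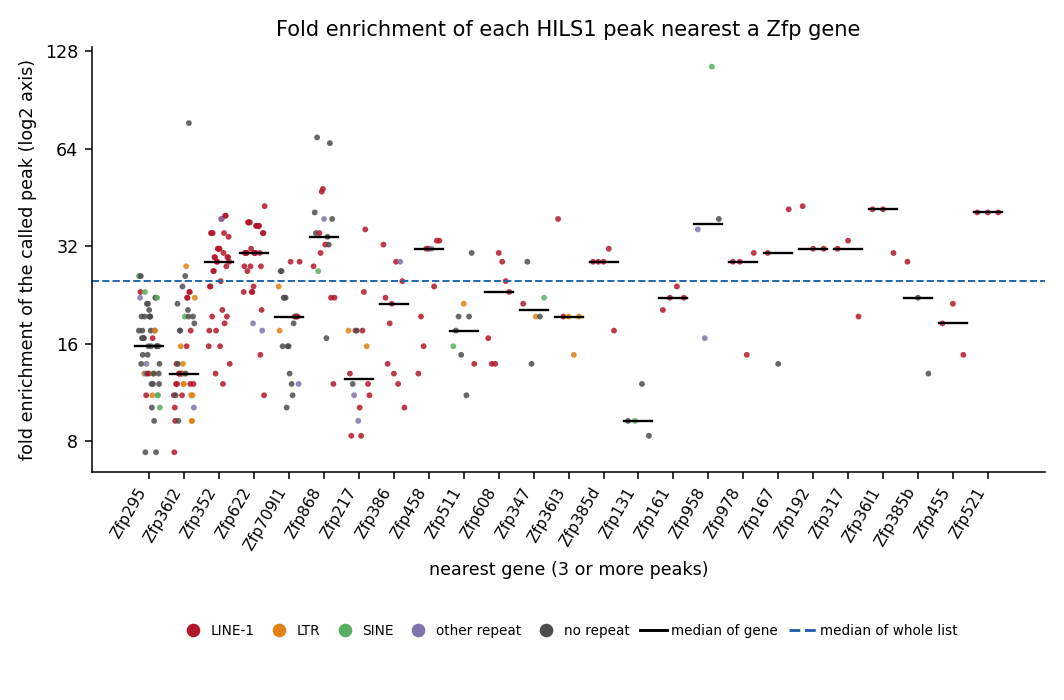
Fold enrichment (log2 axis) of each HILS1 peak for the 25 zinc finger genes with at least 3 peaks, in order of the number of peaks, with the points of a gene in order of genome position and coloured by repeat. Black bars are the medians of the genes and the dashed line is the median of the whole list, 25.0, above the medians of Zfp295 (15.7) and Zfp36l2 (13.0).

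Zfp295 had the peaks of a single stretch of 252 kb on chromosome 11, from 42077034 to 42329237. All 56 lay upstream of the gene, 110731 to 361667 bp from its start. They came from 48 called peaks, covered 21.7% of the stretch and had a median gap of 1183 bp between neighbours. Only 4 were in LINE-1, 38 were in no annotated repeat, 6 in SINEs and 4 in LTR elements, whose fold enrichments were 11.1 to 17.6. Their fold enrichments, 7.41 to 25.9, had a median of 15.7, while their median false discovery rate was 7.86%. The window of 1 Mb around them held 98 peaks in all, of which 14 were in LINE-1. The run of Zfp295 was therefore dense and low in fold, and most of its peaks were given no repeat label. Its highest peak hardly passed the median of the whole list.

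Zfp36l2, one of the Zfp36 family of mRNA decay factors, had 47 peaks over 377 kb of chromosome 7, all downstream and 27048 to 403954 bp from its start. Of these 19 were in LINE-1, 15 in no annotated repeat, 11 in LTR elements and 1 each in a SINE and the satellite RatSatRep1. The median fold enrichment was 13.0, the lowest 7.41, and the highest 76.9 in a peak of 2972 bp that had no repeat label. Of the whole list 99.2% had a lower fold. LTR peaks had fold enrichments of 9.26 to 27.8, the highest in MTD, and included 4 in RNERV19-int, an endogenous retrovirus, with 9.26 to 11.1. The neighbours of this gene differed between builds, since none of the 5 gene names next to its peaks in the list lay on its chromosome in RefSeq GRCr8, where Thada is its coding neighbour on one side. The 47 peaks are thus named by the place of the gene in rn5, and whether they lie near Zfp36l2 in a later build was not tested. For the other 47 genes at least 1 of up to 6 flanking names was on the same chromosome, and for 45 at least 1 was within 50 genes. Without Zfp36l2 the LINE-1 share of zinc finger peaks was 58.7% and the median fold enrichment 22.2.

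The remaining Zfp36 genes had few peaks. Zfp36l1 had 3, all in L1_Rn, with fold enrichments of 41.7, 41.7 and 30.6 and starting 42601 bp upstream. Zfp36l3, an X-linked gene that rodents express in placenta, had 5 peaks within 9.04 kb, 363985 to 372022 bp upstream. Of these 3 were in the LTR elements ORR1D-int, MTE2a and MYSERV-int with fold enrichments of 19.4, 14.8 and 19.4, and 2 were in LINE-1 with 38.9 and 19.4.

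Zfp352 and Zfp622 had many peaks and none without a repeat. Zfp352, which mouse embryos express before implantation, had 38 peaks across 1865 kb of chromosome 5, from 1558943 bp upstream to 305679 bp downstream. Of these 37 were in LINE-1, 21 in L1_Rn and 12 in L1_Rat1, and the 1 peak outside LINE-1 was in RatSatRep2. The median fold enrichment was 28.7 (range 12.04 to 39.81), with 29.6 in L1_Rn and 19.0 in L1_Rat1. Zfp622, whose human protein takes part in the making of the large ribosomal subunit, had 35 peaks from 20 called peaks in 239 kb of chromosome 2, 23924 to 261696 bp downstream. Of these 33 were in LINE-1 and 2 in RatSatRep2, and the median fold enrichment was 30.6 (range 11.1 to 42.6). Its window held 52 peaks, 50 of them in LINE-1. The window of Zfp868 held 51 peaks, with 22 in LINE-1, so windows of like count differed in repeats.

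Several called peaks of these genes were listed as a row of segments. The called peak with the most segments was at Zfp622, where 6 segments, all in L1_Rn, spanned 5918 bp from 98137204 to 98143122 on chromosome 2 with a fold enrichment of 37.0. At Zfp521, a zinc finger regulator of progenitor cells, all 3 peaks were segments of 1 called peak of 6433 bp in L1_Rn, 71083 to 75334 bp upstream, with a fold enrichment of 40.7. Of the 297 called peaks at zinc finger genes 38 had more than 1 listed segment there (12.8%, against 22.9% of the list). All segments were in LINE-1 in 22 of the 38, or 57.9%, against 81.4% of such peaks in the list. The 38 had a median fold enrichment of 27.3 and called peaks with 1 segment at zinc finger genes had 18.5, and in the whole list these were 30.6 and 21.3, so the higher fold of peaks with several segments was general to the list.

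Zfp709l1 and Zfp347 were next to each other on chromosome 7 among the gene names that held peaks, although neither is the nearest coding neighbour of the other in RefSeq GRCr8. Leaving out the outermost peak of each gene, 26 peaks lay between 10340442 and 10445787, with 21 assigned to Zfp709l1 and 5 to Zfp347 and a gap of 37.4 kb between those of one gene and those of the other. Of the 26 peaks 19 were in no annotated repeat and 2 in LINE-1, and the fold enrichment was 10.2 to 28.7 with a median of 19.4. The peaks lay 162059 bp or more from the start of Zfp709l1 and 187657 bp or more from that of Zfp347. Over all its 22 peaks Zfp709l1 had 16 in no repeat, 3 in LINE-1 and 2 in the LTR elements MTD and RMER15 with fold enrichments of 17.6 and 24.1. Zfp347 had 1 in the LTR element MLT1F2 with 19.4. Other neighbouring pairs in the list were Zfp458 and Zfp455 on chromosome 2, Zfp746 and Zfp467 on chromosome 4 and Zfp167 and Zfp105 on chromosome 8. Of the peaks of these 3 pairs only 1 of Zfp458, in RatSatRep2, and 1 of Zfp167 were outside LINE-1.

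Zfp868 had 19 peaks over 410 kb of chromosome 16, 18 of them downstream, with 9 in LINE-1 and 8 in no annotated repeat. It had the highest median fold enrichment of the 10 genes with the most peaks, 34.3 (range 12.04 to 69.44). The fold was 37.0 at the median in no repeat and 30.6 in LINE-1. Its highest peaks, with 69.4 and 66.7, were in no repeat, 211850 and 346927 bp from the start. At Zfp295 the repeat-free peaks had a median of 16.2 and the 4 LINE-1 peaks 14.8, and its highest fold, 25.9, was found in repeat-free peaks too.

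**Figure D4:**
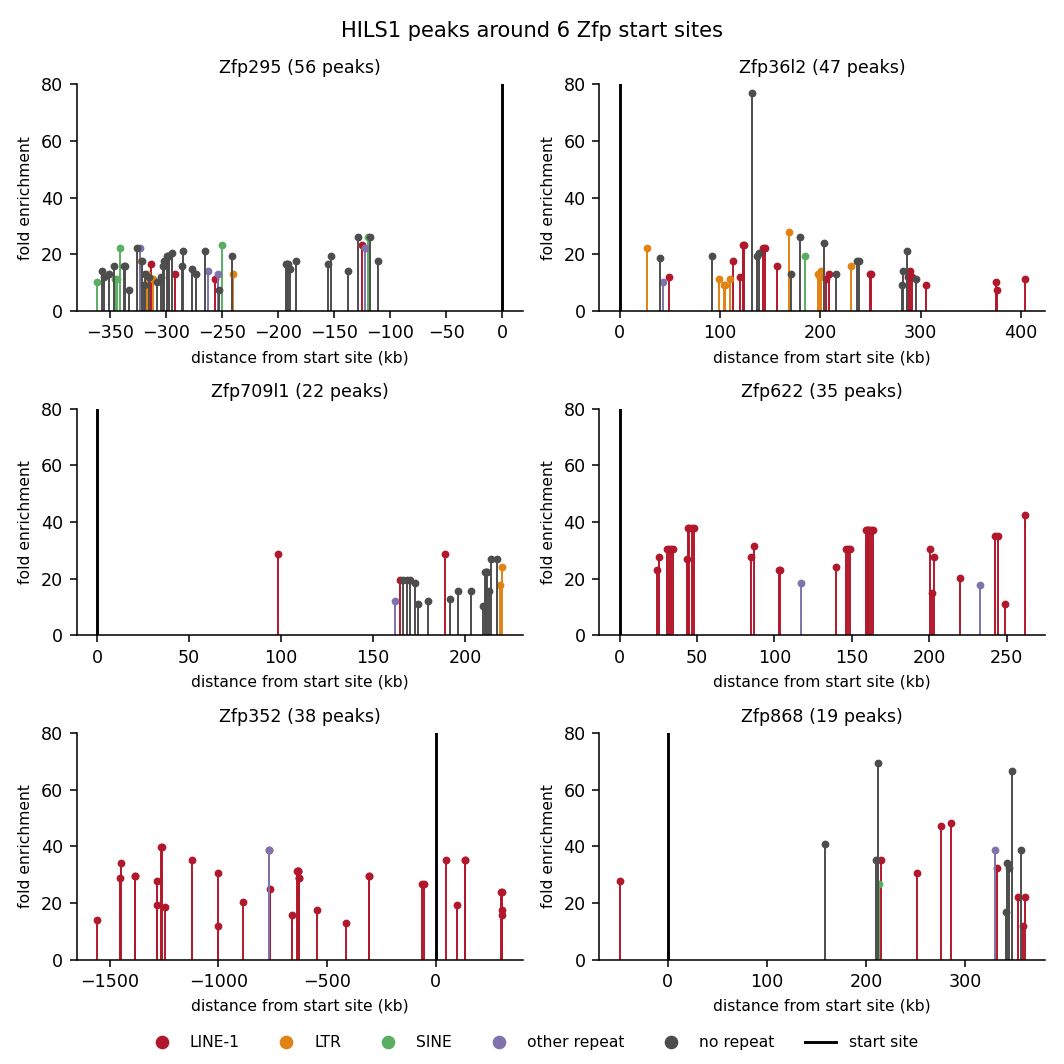
HILS1 peaks at 6 zinc finger genes by distance from the transcription start site (kb, negative values upstream) and fold enrichment, coloured by repeat, with the start site as a black line. Zfp295 has 56 peaks upstream only, Zfp36l2, Zfp709l1 and Zfp622 have theirs downstream only, and the highest peak shown is at Zfp36l2 with a fold enrichment of 76.9.

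Zfp217, whose human counterpart is amplified in breast cancer, had 16 peaks on chromosome 3, all 150424 to 486914 bp upstream. Of these 10 were in LINE-1, 2 in no repeat, 2 in the LTR element RLTR20B2 with fold enrichments of 17.6 and 15.7, 1 in the satellite RNSAT1 and 1 in RatSatRep2. The median fold enrichment was 12.5, the lowest 8.33 and the highest 36.1 in L1_Rn, and the median false discovery rate was 12.2%. All of its peaks but 1 were below the median fold of the whole list. Zfp386, a Kruppel-like zinc finger gene, had 11 peaks scattered over 2132 kb of chromosome 6, all upstream, with 10 in LINE-1 and a median fold enrichment of 21.3. Zfp458 had 9 peaks on chromosome 2, all upstream, 8 of them in LINE-1, with a median of 31.5. Zfp511 was the only gene of the 10 with peaks closer than 20 kb to its start. Its 9 peaks ran from 7833 to 55366 bp downstream on chromosome 1, 6 were in no repeat and 1 each in the SINE B4A, the LTR element RNLTR19A with a fold enrichment of 21.3, and L1MDb. Their median fold enrichment was 17.6 and the highest, 30.6, was in a repeat-free peak 53068 bp from the start.

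The highest fold enrichment of all, 115, belonged to a peak of 1455 bp nearest Zfp958 on chromosome 12, from 7662092 to 7663547. It lay 61235 bp upstream of the start and was labelled with the SINE B1_Mur3. A lower fold was found in 99.6% of the list. The next peak, beside it and in no repeat, had 38.9, and the 2 others of the gene were in RatSatRep2 with 36.1 and 16.7. Zfp18 had a RatSatRep2 peak with a fold enrichment of 54.6 and a LINE-1 peak with 25.0. Over the 12 RatSatRep2 peaks, at 10 genes, the median fold enrichment was 25.5 (range 9.26 to 54.6), against 23.2 for this repeat in the whole list.

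At the other end, Zfp131 had 4 peaks with fold enrichments of 9.26, 9.26, 12.04 and 8.33, none of them in LINE-1, 3 in no repeat and 1 in the SINE B1_Mur2. They lay 128630 to 304418 bp upstream, and their median false discovery rate was 17.1%. The lowest fold at zinc finger genes, 7.41, was found in 2 peaks of Zfp295 and 1 of Zfp36l2, and it was also the lowest of the list. Of the genes with 1 peak, Zfp322a had it in the satellite SATI_RN with 18.5, Zfp507 in the LTR element NICER19A-int with 15.7 and Zfp52 in RatSatRep2 with 26.9. Zfp652 had its peak in L1_Rn with 25.0, and Zfp846, 8652 bp upstream, in L1_Rat1 with 22.2. The weakest peaks thus came from genes with few or no LINE-1 peaks as well as from Zfp36l2 and Zfp217.

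Genes that act with KRAB zinc finger proteins in silencing were looked up in the list as well. Of 23 listed genes, among them Trim28, Setdb1, Mphosph8 and Morc2 of the silencing machinery and Cbx1, Cbx3 and Cbx5 for heterochromatin protein 1, 2 were the nearest gene of a peak (8.70%), against 4530 of the 23154 protein-coding genes of RefSeq GRCr8 (19.6%). Dnmt3a, a DNA methyltransferase, had 1 at 5356 bp from its start with a fold enrichment of 30.6. Hdac2, a histone deacetylase, had 5 with 16.7 to 40.7, the nearest at 84029 bp. All 6 were in LINE-1, and the other 21 of the 23 genes were named for no peak. The peaks were annotated on rn5, so any coding gene of GRCr8 missing from that annotation could not be named. The shares of 8.70% and 19.6% are therefore not strictly alike.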

How the data were processed

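The authors trimmed the reads, aligned them to the rat genome rn5 with Bowtie2, called peaks in each of 2 HILS1 ChIP replicates against 1 input library with MACS, intersected both sets with bedtools and annotated the shared regions with HOMER. The submitters' processing notes also name FastQC, SAMtools and Trim Galore, without versions. The deposited fold enrichment is a linear ratio over the background of MACS. The deposited score grows with the negative log10 of the p-value, and the deposited false discovery rates are given in percent. The replicate they come from is not given in the sources used here. The deposited lengths run from 100 to 4000 bp. Read totals were not used here, so the depth is unknown.

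Rows were selected by gene name, and repeats, regions and distances to the transcription start site were taken from the HOMER columns. LINE-1 means repeat class LINE and family L1. Shares have 95% Wilson intervals and medians have order-statistic intervals, and no test was made. Both were tested on simulated independent draws only. Peaks are not independent, so that test does not give the coverage of the intervals here. The members, lists and comparisons were chosen with earlier results of these data known. Full values were given by rule for the 10 genes with the most rows, genes with a peak inside them, the genes of the 5 highest, lowest, nearest and farthest peaks and of peaks in LTR elements and satellites, and C3H genes. Zfp347, Zfp385d, Zfp455, Zfp467, Zfp52, Zfp521, Zfp608, Zfp746, Zfp105, Zfp846 and Zfp951 were named after their values were known. All 48 gene identifiers matched RefSeq GRCr8, which served for current names, neighbours and start regions. Sequences of peaks and of the encoded proteins were not analysed here. The alternatives left out Zfp295, took only the longest listed segment per called peak, or required a false discovery rate up to 10% or a fold from 16. Others excluded 1 Mb windows holding 50 or more peaks, weighted genes equally or required a zinc finger description. The last kept all 352 peaks, so its outcome was fixed in advance. Leaving out Zfp36l2, all Zfp36l genes or Zfp622, and Zfp295 for the SINE and upstream shares, was chosen after seeing the data. The tools were scipy 1.17.1, pandas 2.3.3, numpy 2.4.6 and, for the plots, matplotlib 3.10.9 under Python 3.11.15.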

Additional observations from a re-analysis of the deposited data

How the results depend on the processing

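Of the values at zinc finger genes, the intergenic share stayed within its interval under every alternative tried except equal weights. The share held by the gene with the most peaks did so under every alternative that gave a value. That gene was not always Zfp295, so this does not describe the share of Zfp295 itself. It was Zfp36l2 without Zfp295 (47 peaks, 15.9%) and outside windows of at least 50 peaks (44 peaks, 18.4%). Requiring a zinc finger description kept all 352 peaks and could move no value. Equal weights for the genes gave 69.0% in LINE-1, 13.4% in no repeat, 88.9% intergenic and a median distance of 64438 bp, against 88.9%, 4.30%, 77.8% and 71013 bp in the whole list under the same weights, so the median distance was below that of the list where by peaks it is above it. They give no value for the share of the gene with the most peaks. Without Zfp295 the LINE-1 share was 65.5% and the share in no repeat 19.6%. Outside windows of at least 50 peaks these were 62.3% and 20.9%, with 89.1% of the list in LINE-1 there. A false discovery rate of at most 10% gave a median fold of 24.1 and a median distance of 191702 bp, against 27.8 and 189834 bp in the list, with LINE-1 shares of 60.6% against 82.2%. A fold of at least 16, which raises the median by construction, gave a median fold of 25.9, a median distance of 183843 bp and 63.3% in LINE-1, against 27.8, 186393 bp and 84.3% in the list, so the median distance was again below that of the list. Leaving out Zfp36l2 moved none of these values out of its interval.

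No paired analysis was possible because the list pools both replicates and holds no value per replicate, and for the same reason no result without 1 replicate exists. Intervals treat peaks as independent, which segments and neighbouring peaks are not. The nearest gene depends on the genes annotated in rn5. Repeat-free means that the annotation used gave no repeat at the peak.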
